A study of Mus musculus with 15 samples.

Results

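The proteins of the cytosolic ribosome were followed at the mRNA level in mouse liver after a brief change of diet. The set holds the protein-coding genes whose symbol is Rpl or Rps followed by digits and at most one further letter (a, x or l), together with Rpsa, Rplp0, Rplp1 and Rplp2. It comes to 80 genes, 49 of the large subunit and 31 of the small subunit, among 25731 genes in the tables. Of these, 77 genes (46 large, 31 small) had enough reads to be tested, beside 13967 genes tested in all. The other 3 are the large-subunit paralogs Rpl3l, Rpl10l and Rpl39l, with 25, 15 and 4 reads over all 15 libraries. Libraries came from livers of C57BL/6 mice on a ketogenic diet, on a high-fat diet or on chow, with 5 libraries per diet. Mice on the ketogenic and high-fat diets were aged 12 weeks and had eaten them for 3 days, while the labels used here give no age for the chow mice. The labels do not say that each library is a separate mouse, and p-values measure the spread between these libraries only. Libraries are named below by diet and by the number in their label.

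A ribosome is built from a large and a small subunit, each an assembly of ribosomal RNA and many different proteins, and the proteins are needed in matching amounts. Messenger RNAs of vertebrate ribosomal proteins usually begin with a C followed by an unbroken run of C and T (U in the RNA), the 5′ terminal oligopyrimidine tract, through which mTORC1 and the RNA-binding protein LARP1 set their translation and stability. The liver makes much of the protein of blood plasma, and its ribosome content is known to follow feeding and fasting.

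Reads assigned to genes per library ranged from 30056000 to 50804000. Hepatocyte markers (8 of 8 tested) summed to between 88477 and 96982 normalised CPM (reads scaled to TMM library sizes) in the ketogenic libraries. Their sums were 68140 to 81368 in the high-fat and 72145 to 88574 in the chow libraries. Libraries HFD 12 and HFD 14 stood apart from the other high-fat libraries: their TMM factors were 1.03 and 1.10, against 0.916 to 0.970 in HFD 9, 10 and 11, and high-fat results are also given without them. On that reduced set, chosen after seeing the data, 3 high-fat libraries remain. Fewer cells of a type and less RNA per cell cannot be told apart in bulk liver.

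The start sites of a few members are shown first, since a pyrimidine run at the start is the sequence feature by which these mRNAs are known. RefSeq promoters on build GRCm38.p6, each running from 250 bases before to 50 bases after the annotated start, were matched for 60 of the 80 members. Some genes have several starts in that table: a feature counts if any of a gene's promoters holds it, and the window shown is the one nearest the start of the gene in the GENCODE annotation. That distance was at most 100 bases for 45 of the 60 members, so the RefSeq start need not be the one used in liver. A run of at least 8 C or T letters within 20 bases of the start was found in 29 of 60 members (48.3%), against 18.4% of the 27025 genes in the same table. The longest run had a median of 7 letters in members and 5 in all genes. The windows below hold 15 bases on each side of the start, on the coding strand, with the longest run in capitals. The first 3 are members that fell on both diets and carry a run of 10 or more letters across the start.
Rps6: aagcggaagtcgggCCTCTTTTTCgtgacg
Rpl28: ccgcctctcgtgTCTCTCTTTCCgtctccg
Rpl38: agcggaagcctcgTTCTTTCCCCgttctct
These lie at chr4:86857353-86857382 (minus strand), chr7:4792950-4792979 (plus strand) and chr11:114668565-114668594 (plus strand). The next 2 are the members with the smallest adjusted p on the high-fat diet (Rps26) and on the ketogenic diet (Rpl37), whose longest run lies to one side of the RefSeq start.
Rps26: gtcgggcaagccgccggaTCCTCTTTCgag
Rpl37: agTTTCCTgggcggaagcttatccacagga
They lie at chr10:128626492-128626521 (minus strand) and chr15:5116598-5116627 (plus strand). The Rps26 window lies more than 100 bases inside the gene in the GENCODE annotation, which starts at chr10:128626747. The last 2 are members that passed no test on the ketogenic diet and have a run of 4 letters or fewer, which in Rpl22 begins 1 base before the window. With all libraries Rpl22 did fall on the high-fat diet (log2 fold change -0.28). Rpl10 shares reads with a near-identical copy described below, and their sum fell on both diets (-0.26 and -0.27). Without HFD 12 and HFD 14 neither of these high-fat falls passed the test.
Rpl22: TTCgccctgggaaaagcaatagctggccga
Rpl10: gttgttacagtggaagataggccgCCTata
They lie at chr4:152325711-152325740 and chrX:74270801-74270830, both on the plus strand. Over the matched and tested members the medians with and without a run were close. On the ketogenic diet the median log2 fold change was -0.25 for the 29 members with a run and -0.26 for the 28 without, and on the high-fat diet it was -0.32 and -0.31. Falls numbered 18 of 29 with a run and 19 of 28 without on the ketogenic diet, and 23 and 21 on the high-fat diet.

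A second shared feature was the ETS core motif CCGGAAG, searched on both strands of the whole promoter, which was present in 25 of 60 members (41.7%) and in 9.93% of all genes in the table. The YY1 core AAGATGGC was present in 5 members (8.33%, against 3.19% of all genes) and TATAAA in 6 (10%, against 15.7%). Windows of 30 bases around the ETS core, in capitals, are given for 3 members that fell on both diets, to show its context.
Rps6: ttaatctacgcCCGGAAGtaacgcccctct
Rps26: ttaatcttccgCCGGAAGgttaaatagttc
Rpl37: accaagacccgCCGGAAGtagtttcctggg
They lie at chr4:86857440-86857469, chr10:128626702-128626731 and chr15:5116579-5116608, with the core beginning at -91, -214 and -23 from the RefSeq start. The Rps26 core lies downstream of the GENCODE start of that gene (chr10:128626747). A letter match is a description and not a bound site. Members with the core had a median log2 fold change of -0.24 on the ketogenic and -0.32 on the high-fat diet, and members without it -0.27 and -0.31. On the ketogenic diet 13 of 24 tested members with the core fell, and 24 of 33 without it. On the high-fat diet these were 19 of 24 and 25 of 33.

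Both subunits took a smaller share of the reads on either diet than on chow, and in the same proportion. Large-subunit members held 0.576, 0.545, 0.565, 0.557 and 0.577% of the reads in the ketogenic libraries, 0.565, 0.527, 0.545, 0.492 and 0.496% in the high-fat libraries and 0.665, 0.648, 0.647, 0.599 and 0.683% in the chow libraries. Small-subunit members held 0.375, 0.358, 0.369, 0.3603 and 0.374% in the ketogenic, 0.372, 0.342, 0.353, 0.316 and 0.320% in the high-fat and 0.437, 0.420, 0.422, 0.390 and 0.445% in the chow libraries. In share of reads, every ketogenic and every high-fat library lay below every chow library for both subunits. The lowest 2 were HFD 12 and HFD 14. As a share of TPM these 2 were the highest high-fat libraries (1.93 and 1.91%, against 1.65 to 1.86% in HFD 9, 10 and 11). In normalised CPM, used for single genes below, HFD 9 held 6071 (large) and 3996 (small), above 5951 and 3869 in CD 18. Summed over both subunits the share was 0.931 ± 0.0208% (SD, n = 5) in ketogenic, 0.866 ± 0.0547% in high-fat and 1.07 ± 0.0522% in chow libraries. These sums over chosen genes are descriptions and carry no test.

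The ratio of large-subunit to small-subunit reads barely moved. It was 1.54 ± 0.00940 (SD, n = 5) in ketogenic, 1.54 ± 0.0147 in high-fat and 1.53 ± 0.00888 in chow libraries, with single libraries from 1.52 to 1.56. The groups overlapped fully. As a share of TPM, which corrects for the effective length kallisto gives each transcript, the members held 2.40 ± 0.0747% in ketogenic, 1.84 ± 0.111% in high-fat and 2.33 ± 0.107% in chow libraries, so the ketogenic and chow libraries overlapped on that scale. Effective length per annotated base of the members differed between diets: 0.802 ± 0.00435 in ketogenic, 0.853 ± 0.0364 in high-fat and 0.837 ± 0.0179 in chow libraries. Within the high-fat diet it was 0.805 and 0.823 in HFD 12 and HFD 14, against 0.873 to 0.887 in the other 3. The part of those lengths in the result was not tested.

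**Figure D1:**
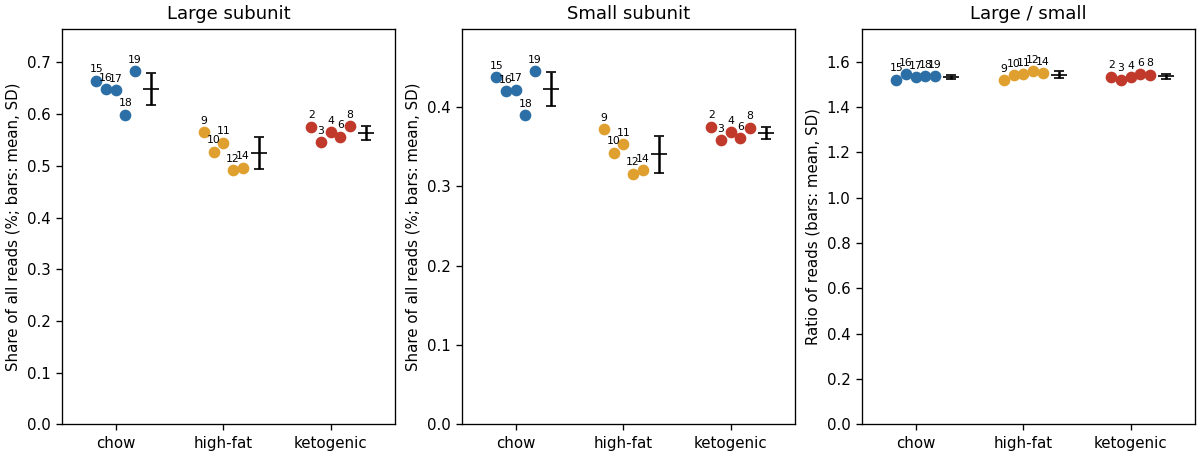
Share of all reads held by large-subunit and small-subunit members, in percent, and the ratio of large to small, for each of the 15 libraries (points with library numbers; bars, mean and SD, n = 5 per diet). Both shares of reads were lower in all ketogenic and high-fat libraries than in all chow libraries, and the ratio stayed between 1.52 and 1.56. That order did not hold for the ketogenic diet as a share of TPM (2.40% against 2.33%), nor for HFD 9 against CD 18 in normalised CPM.

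On the ketogenic diet, 33 of 46 large-subunit members and 21 of 31 small-subunit members fell against chow and none rose (edgeR quasi-likelihood test, adjusted p under 0.05). Of all 13967 genes tested, 14.6% fell and 16.2% rose. The median log2 fold change was -0.29 for large-subunit members, -0.26 for small-subunit members and -0.01 for all genes. This direction depended on the scale, since on log2 TPM no member fell, 3 rose and the members' median was 0.05 while that of all genes was shifted to 0.21. In an alternative chosen after seeing the data, with each library centred on its median gene, 40 members fell on log2 TPM and none rose, with a median of -0.23, while 22.5% of all genes fell with a median of -0.07. The values given below for single genes are from the read counts. Libraries of the 2 diets did not overlap for 45 of the 77 members (29 large, 16 small), lower in each case, against 10.1% of all genes lower and 12.2% higher. Seen singly the changes were small: 56 of 77 members lay within 0.1 of the common median of -0.28, and the SD of the fold changes over members was 0.10. The median SE of a single member was 0.08. Members share libraries, so setting that SD beside the SE does not test how alike they are. With an offset for transcript length the median was -0.16 and 40 members fell. Leaving out CD 15 left 39 members that fell (26 large, 13 small), beside 54 with all libraries.

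Among large-subunit members, Rpl37, a zinc-finger protein, had the smallest adjusted p (ENSMUSG00000041841.8, chr15:5116645-5119140, + strand). Rpl37 measured 55.7, 52.7, 53.8, 59.5 and 58.1 CPM in the ketogenic libraries, 65.1, 62.1, 60.1, 54.8 and 53.3 in the high-fat libraries and 80.8, 79.5, 74.96, 68.6 and 73.5 in the chow libraries. All ketogenic and all high-fat libraries lay below all chow libraries. Its log2 fold change on the ketogenic diet was -0.43 ± 0.06 (SE), a level 0.742 of that on chow (adjusted p = 5.60e-05). Rpl28, which budding yeast lacks, had the largest fall (ENSMUSG00000030432.12, chr7:4792874-4795066, + strand). Rpl28 measured 92.5, 85.4, 103, 102 and 97.2 CPM in the ketogenic libraries, 107, 105, 107, 90.3 and 83.3 in the high-fat libraries and 144, 135, 126, 111 and 135 in the chow libraries. Again no ketogenic library reached the lowest chow library, CD 18. The change was -0.44 ± 0.08 (adjusted p = 4.25e-04). Rpl6 and Rpl27 fell by 0.37 and 0.38 on the log2 scale, with adjusted p of 6.41e-04 and 7.09e-04, and their ketogenic and chow libraries did not overlap.

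Small-subunit members were led by Rps26, which lies at the exit channel of the mRNA (ENSMUSG00000025362.6, chr10:128624534-128626747, - strand). Rps26 measured 67.8, 64.0, 63.2, 65.9 and 69.2 CPM in the ketogenic libraries, 69.3, 68.6, 63.7, 58.4 and 55.8 in the high-fat libraries and 95.8, 86.7, 84.4, 77.7 and 90.01 in the chow libraries. The chow libraries were the 5 highest. Rps26 fell by 0.40 on the log2 scale on the ketogenic diet (SE 0.07, adjusted p = 2.20e-04). Rps6, the substrate of the S6 kinases that act below mTORC1 (ENSMUSG00000028495.14, chr4:86854660-86857412, - strand), had the largest change of the small subunit. Rps6 measured 205, 216, 217, 230 and 226 CPM in the ketogenic libraries, 255, 248, 237, 202 and 192 in the high-fat libraries and 295, 283, 296, 259 and 313 in the chow libraries. Ketogenic libraries lay between 205 and 230.1 CPM and chow libraries between 259 and 313 CPM, without overlap. Its log2 fold change was -0.40 ± 0.08 (adjusted p = 7.20e-04). Rps23, at the decoding centre, changed by -0.38 ± 0.07 (adjusted p = 3.69e-04), without overlap of the libraries.

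Members at the other end of the ketogenic comparison were Rpl3, Rpl10, Rps27 and Rps14. Rpl3 lies close to the peptidyl transferase centre (ENSMUSG00000060036.14, chr15:80077791-80091868, - strand). Rpl3 measured 174, 174, 184, 184 and 186 CPM in the ketogenic libraries, 180, 165, 163, 132 and 124 in the high-fat libraries and 202, 177, 170, 172 and 177 in the chow libraries. Ketogenic and chow libraries overlapped, with CD 15 above all others, and the log2 fold change was 0.01 ± 0.09 (adjusted p = 0.961, 95% interval -0.18 to 0.20). Rps14 had 93.6, 91.3, 105, 105 and 114 CPM in ketogenic and 123, 110, 98.9, 86.0 and 114 CPM in chow libraries. The 2 groups overlapped and the change was -0.06 ± 0.12 (adjusted p = 0.740). Rpl10 and Rps27 each contain most of the sequence of another gene of the tables and are described with it below. Apart from Rpl3, every tested member had a negative log2 fold change (76 of 77).

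**Figure D2:**
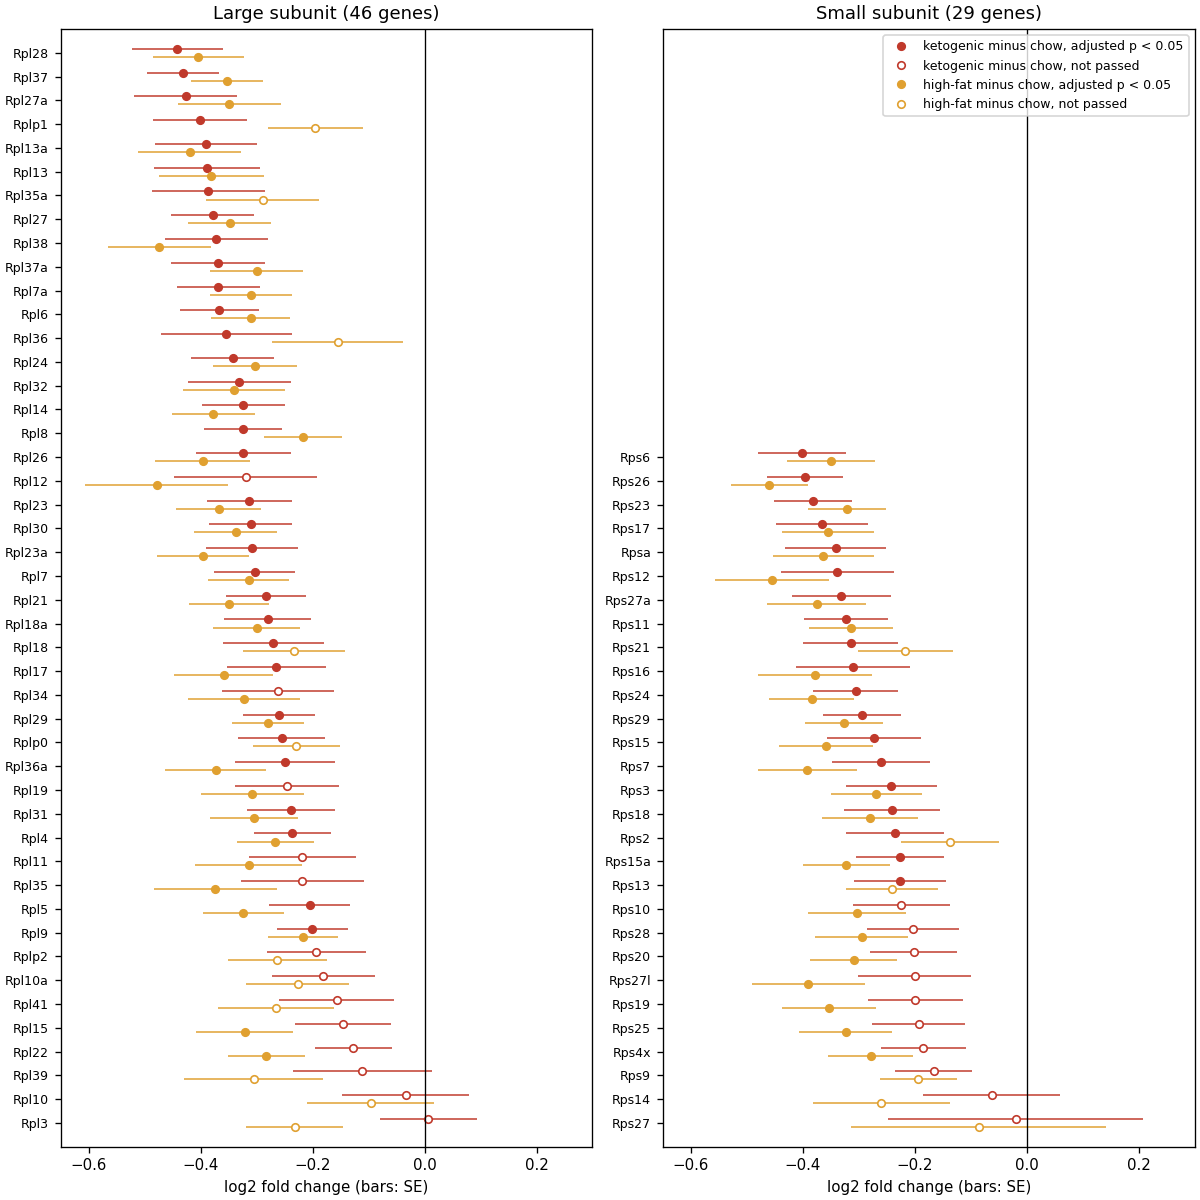
Log2 fold change against chow of the 46 large-subunit members tested and of 29 of the 31 small-subunit members, with SE bars, on the ketogenic diet (red) and the high-fat diet (yellow), ordered by the ketogenic value; filled points passed the test. On read counts all members lie between -0.48 and 0.01 on both diets, while on log2 TPM the median of the ketogenic comparison was 0.05, beside 0.21 for all genes.

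On the high-fat diet, 35 of 46 large-subunit members and 25 of 31 small-subunit members fell against chow and none rose, beside 7.32% of all genes that fell and 8.3% that rose. Medians were -0.31, -0.32 and, for all genes, 0.01. The range over members ran from -0.48 (Rpl12) to -0.09 (Rps27), and all 77 values were negative. Libraries of the 2 diets did not overlap for 24 members (13 large, 11 small), lower in each case, against 4.81% of all genes lower and 5.5% higher. The coefficient of variation of CPM was larger over the high-fat than over the ketogenic libraries for 77 of the 77 members. Without HFD 12 and HFD 14, 20 members fell (11 large, 9 small), none rose, the median was -0.21, and 3.57% of all genes fell. The 3 remaining libraries did not overlap with chow for 26 members, all lower, against 7.57% of all genes lower and 7.82% higher. With a length offset 42 members fell and the median was -0.17.

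The spread between high-fat libraries ran through the set as a whole. Per library, the median deviation of the 77 members from their chow mean (log2 CPM) was -0.13, -0.21, -0.26, -0.48 and -0.56 in HFD 9, 10, 11, 12 and 14. It was -0.28, -0.34, -0.31, -0.24 and -0.20 in KD 2, 3, 4, 6 and 8, and 0.11, -0.02, -0.01, -0.16 and 0.08 in CD 15 to 19. In HFD 12 and HFD 14 all 77 members lay below their chow mean, as they did in CD 18, whereas 4 did in CD 15 and 10 in CD 19. Single libraries of 1 diet thus differed from each other over nearly all members in the same direction. Large-subunit and small-subunit members gave nearly the same value in each library, such as -0.55 and -0.57 in HFD 14 and -0.14 and -0.11 in HFD 9.

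**Figure D3:**
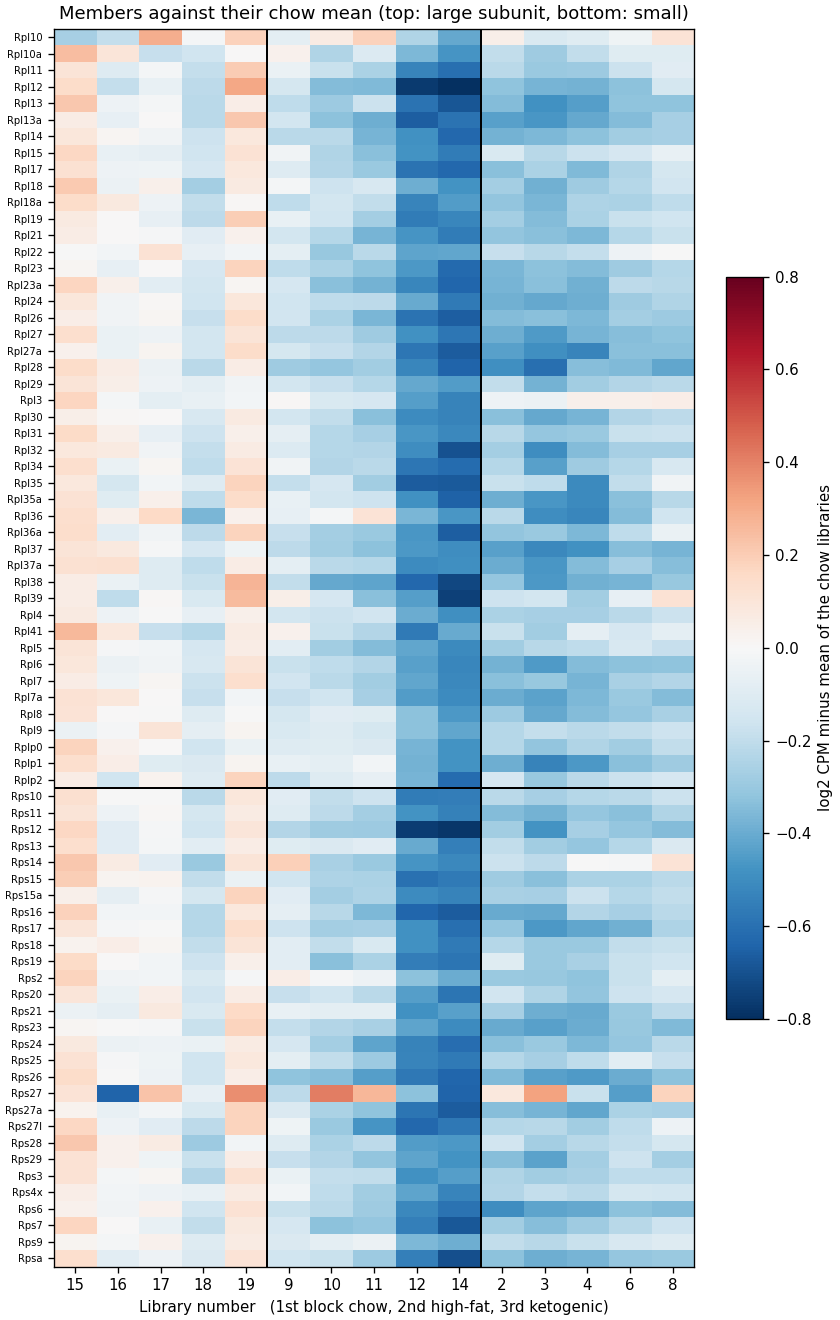
Deviation of 75 of the 77 tested members (lines; large subunit above, small subunit below) from its mean over the 5 chow libraries, in log2 CPM, for every library (columns, grouped by diet and marked by library number). Over all 77 members HFD 12 and HFD 14 are lower throughout in read counts (as a share of TPM they were the highest high-fat libraries), CD 15 is lower in 4, and the ketogenic libraries are lower in 72 to 76 on this scale, while on log2 TPM the ketogenic median was 0.05.

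Rps26 also had the smallest adjusted p on the high-fat diet. Its log2 fold change was -0.46 ± 0.07 (adjusted p = 2.74e-04) from the values above, where the highest high-fat library (69.3 CPM) lay below the lowest chow library (77.7 CPM). Rpl38, the gene altered in the tail-short mouse (ENSMUSG00000057322.12, chr11:114668524-114672331, + strand), was second among large-subunit members in size of change. Rpl38 measured 57.6, 51.9, 54.8, 55.2 and 58.0 CPM in the ketogenic libraries, 62.2, 53.8, 53.3, 46.1 and 43.1 in the high-fat libraries and 74.5, 68.9, 66.5, 63.2 and 86.1 in the chow libraries. No high-fat or ketogenic library reached the lowest chow library, CD 18. Rpl38 changed by -0.47 ± 0.09 on the high-fat diet (adjusted p = 0.00229) and by -0.37 ± 0.09 on the ketogenic diet (adjusted p = 0.00445).

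Rpl12, at the base of the stalk that recruits elongation factors, had the lowest value on the high-fat diet (ENSMUSG00000038900.17, chr2:32961559-32965345, + strand). Rpl12 measured 88.6, 85.7, 85.2, 88.5 and 101 CPM in the ketogenic libraries, 101, 87.2, 87.0, 65.1 and 61.8 in the high-fat libraries and 123, 97.3, 107, 95.7 and 137 in the chow libraries. HFD 12 and HFD 14 were far below the rest and HFD 9 overlapped with chow. Its change was -0.48 ± 0.13 (adjusted p = 0.0193), and on the ketogenic diet -0.32 ± 0.13 (adjusted p = 0.0691). Rpl37, Rpl28, Rpl14 and Rps24 changed by -0.35 ± 0.06, -0.40 ± 0.08, -0.38 ± 0.07 and -0.38 ± 0.08, with adjusted p of 0.00152, 0.00299, 0.00249 and 0.00259. For these 4 genes the high-fat libraries lay below all chow libraries. Without HFD 12 and HFD 14 the falls of Rps26, Rpl38, Rpl37, Rpl28, Rpl14 and Rps24 still passed the test, with log2 fold changes of -0.38, -0.36, -0.28, -0.31, -0.28 and -0.28 and adjusted p from 0.00319 to 0.0295. That of Rpl12 did not (-0.30, adjusted p = 0.106).

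Both comparisons used the same chow libraries, so their lists are not independent. Members that fell on both diets numbered 46, which is 85.2% of the 54 that fell on the ketogenic diet and 76.7% of the 60 that fell on the high-fat diet. A further 8 passed only the ketogenic test, 14 only the high-fat test and 9 neither. The members that fell on both without HFD 12 and HFD 14 numbered 20, which is 29.9% of the 67 that then fell on the ketogenic diet and 100% of the 20 that fell on the high-fat diet. Of all genes, 15.4% then fell on the ketogenic and 3.57% on the high-fat diet. The share of all genes that fell on both diets was not counted, so the overlap is a description. The direct comparison of the 2 diets found little: 1 large-subunit member rose on the ketogenic against the high-fat diet, no small-subunit member rose and none fell, beside 13.1% of all genes that rose and 13% that fell. At an unadjusted p under 0.05 there were 3 large-subunit and 0 small-subunit members, and DESeq2 called the same single gene. Libraries of these 2 diets overlapped for every member, while 7.73% of all genes were lower and 9.3% higher without overlap. Once HFD 12 and HFD 14 were left out, 22 members were lower in all 5 ketogenic libraries than in the remaining high-fat libraries and none higher, against 12.2% of all genes lower and 13.6% higher. The medians with all libraries were 0.04 (large) and 0.07 (small).

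The gene that rose was Rpl3. From the values given above its difference between the ketogenic and high-fat diets was 0.24 ± 0.09 (edgeR, adjusted p = 0.0481), and the groups overlapped through HFD 9. The call was lost when any single ketogenic library or HFD 11, 12 or 14 was left out, or when only these 2 diets were fitted. Without HFD 12 and HFD 14, 7 members were lower on the ketogenic than on the high-fat diet (5 large, 2 small), none was higher, and the median was -0.07. The share of members lower was 9.09%, beside 8.59% of all genes. Total count scaling gave 12 of 77 members that rose and none that fell, while 2305 of all 13967 genes rose. On log2 TPM 74 members and 4974 of all genes rose, with the median of all genes shifted to 0.21. The median over members was positive under every scaling run with all libraries (0.03 to 0.40) and negative without HFD 12 and HFD 14 or without HFD 14 alone (-0.01).

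Some members passed the test on 1 diet only, and with all libraries the difference between the diets passed for none of them. Rplp1, an acidic stalk protein (ENSMUSG00000007892.8, chr9:61913284-61914542, - strand), is the clearest on the ketogenic side. Rplp1 measured 104, 94.1, 98.8, 108 and 112 CPM in the ketogenic libraries, 130, 129, 134, 105 and 97.6 in the high-fat libraries and 149, 141, 127, 126 and 138 in the chow libraries. Ketogenic libraries lay below all chow libraries, while HFD 9, 10 and 11 overlapped with chow. The changes were -0.40 ± 0.08 (adjusted p = 0.00135) and -0.19 ± 0.08 (adjusted p = 0.125), and the difference between the diets was -0.21 ± 0.08 (adjusted p = 0.0799). Rpl36 changed by -0.35 ± 0.12 on the ketogenic diet (adjusted p = 0.0293) and -0.16 ± 0.12 on the high-fat diet (adjusted p = 0.401). Rps2, at the entry channel of the mRNA, changed by -0.24 ± 0.09 (adjusted p = 0.0494) and -0.14 ± 0.09 (adjusted p = 0.310). Rps21 changed by -0.31 ± 0.08 (adjusted p = 0.00847) and -0.22 ± 0.08 (adjusted p = 0.0895). Without HFD 12 and HFD 14 the high-fat changes of Rplp1, Rpl36, Rps2 and Rps21 were -0.07, -0.01, -0.01 and -0.09. Their adjusted p ran from 0.510 to 0.975.

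On the high-fat side stood Rpl22, an RNA-binding protein with the close paralog Rpl22l1 (ENSMUSG00000028936.15, chr4:152325742-152334071, + strand). Rpl22 measured 60.8, 59.4, 60.5, 67.3 and 68.8 CPM in the ketogenic libraries, 65.5, 56.1, 59.6, 51.5 and 51.7 in the high-fat libraries and 68.8, 68.0, 74.9, 66.1 and 68.0 in the chow libraries. All high-fat libraries lay below all chow libraries, and KD 6 and KD 8 overlapped with chow. Rpl22 changed by -0.28 ± 0.07 on the high-fat diet (adjusted p = 0.00989) and -0.13 ± 0.07 on the ketogenic diet (adjusted p = 0.177), with a difference of 0.16 ± 0.07 between them (adjusted p = 0.105). Rps19, the gene most often mutated in Diamond-Blackfan anaemia, changed by -0.35 ± 0.08 (adjusted p = 0.00872) and -0.20 ± 0.08 (adjusted p = 0.0809). Rpl39, which lines the exit tunnel, passed neither test, with -0.31 ± 0.12 (adjusted p = 0.107) and -0.11 ± 0.12 (adjusted p = 0.544).

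By role, the 3 stalk proteins gave 2 falls on the ketogenic diet. Rplp0, the base on which the acidic proteins sit, changed by -0.25 ± 0.08 (adjusted p = 0.0178) on the ketogenic diet and -0.23 ± 0.08 (adjusted p = 0.0522) on the high-fat diet, and Rplp2 by -0.19 ± 0.09 (adjusted p = 0.107) and -0.26 ± 0.09 (adjusted p = 0.0513). Of the pair that binds 5S ribosomal RNA and, outside the ribosome, the p53 regulator MDM2, Rpl5 fell on both diets (-0.20 ± 0.07 with adjusted p = 0.0381, and -0.32 ± 0.07 with adjusted p = 0.00591). Rpl11, the other, fell on the high-fat diet (-0.31 ± 0.10, adjusted p = 0.0331) and was -0.22 ± 0.10 on the ketogenic diet (adjusted p = 0.0931). Rpl10a, of the L1 stalk, passed neither test (-0.18 ± 0.09 and -0.23 ± 0.09). Rpsa, also known as the laminin receptor, fell on both (-0.34 ± 0.09 with adjusted p = 0.00706, and -0.36 ± 0.09 with adjusted p = 0.0105). Rps27a, made as a fusion with ubiquitin, fell on both as well (-0.33 ± 0.09 and -0.38 ± 0.09, with adjusted p of 0.00769 and 0.00802). Rps27l, the paralog of Rps27 that p53 induces, fell on the high-fat diet (-0.39 ± 0.10, adjusted p = 0.0143) and was -0.20 ± 0.10 on the ketogenic diet (adjusted p = 0.145). Without HFD 12 and HFD 14 none of the high-fat falls of Rpl22, Rps19, Rpl5, Rpl11, Rpsa, Rps27a and Rps27l passed, at -0.21, -0.23, -0.25, -0.18, -0.22, -0.24 and -0.27 with adjusted p from 0.0524 to 0.230. The panel symbol Rps4l matched no protein-coding gene of the annotation and was not analysed here.

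Levels per length spread far more between members than any member moved between diets. In chow libraries the mean TPM ran from 110 ± 2.54 (Rpl35, SD, n = 5) to 585 ± 27.4 (Rpl13a), a ratio of 5.31, with a median of 284 over the 77 members. Also high were Rpl41 with 521 ± 69.2 TPM and Rpl7 with 521 ± 19.6 TPM, which do not differ beyond their spread. Rpl35, Rpl39 with 147 ± 7.61 TPM and Rpl3 with 168 ± 10.9 TPM were the lowest. Both ends of this order rest on how reads were split with near-identical copies: with the TPM of copies added, Rpl39 was the lowest, Rpl10 the highest with 660 TPM, and the ratio 4.495. Across the 77 members, the log2 fold change against chow ran with the mean TPM at a Spearman rho of -0.30 on the ketogenic and -0.21 on the high-fat diet, and with length at 0.01 and 0.07. Members share libraries and depth, so these are descriptions.

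Near-identical copies held many of the reads of 3 members, and the split between a member and its copy varied between libraries of 1 diet. Rpl10, a late-joining protein of the large subunit, holds 96.2% of the 31-base words of Rpl10-ps3, which drew 95.9% as many reads. Rpl10 measured 181, 162, 164, 171 and 190 CPM in ketogenic libraries, 166, 184, 199, 149 and 132 in high-fat libraries and 146, 153, 215, 173 and 199 in chow libraries, with full overlap. Rpl10-ps3 measured 125, 142, 157, 166 and 139 CPM in ketogenic, 194, 157, 137, 128 and 134 CPM in high-fat and 244, 217, 174, 173 and 212 CPM in chow libraries. Alone, Rpl10 changed by -0.03 ± 0.11 (adjusted p = 0.859) on the ketogenic and -0.10 ± 0.11 (adjusted p = 0.618) on the high-fat diet. With both summed, an alternative chosen after seeing the data, the levels were 319 ± 14.4 CPM in ketogenic, 316 ± 41.7 CPM in high-fat and 381 ± 24.1 CPM in chow libraries (SD, n = 5). The sum changed by -0.26 ± 0.08 (adjusted p = 0.0205) and -0.27 ± 0.08 (adjusted p = 0.0287), close to the median of the set.

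Rps27, a zinc-finger protein of the small subunit, holds 91.6% of the words of Rps27rt. Rps27 alone had 44.7, 26.6, 48.6, 39.6 and 53.7 CPM in the chow libraries, a wide spread in which CD 16 held 26.6 CPM, while the sum with Rps27rt had 84.0, 81.3, 88.1, 63.5 and 86.7 CPM. Alone, its changes were -0.02 ± 0.23 and -0.09 ± 0.23, with the largest SE of all members. The sum changed by -0.23 ± 0.11 on the ketogenic diet (adjusted p = 0.120) and by -0.34 ± 0.11 on the high-fat diet (adjusted p = 0.0426). Rpl35, which lies at the exit of the tunnel, holds 90.4% of the words of Gm2000. It changed by -0.22 ± 0.11 alone and -0.27 ± 0.11 in the sum on the ketogenic diet (adjusted p = 0.0657 for the sum), and by -0.37 ± 0.11 and -0.45 ± 0.11 on the high-fat diet (adjusted p = 0.00983 for the sum). Copies of the other members drew at most 0.167% as many reads as the member, among genes in the tables. Of 297 pseudogenes that the annotation names after a member, 5 are in the tables used here, and reads from the rest were not analysed here. None of the 3 sums passed the test on the high-fat diet without HFD 12 and HFD 14 (-0.15 ± 0.07 for Rpl10, -0.18 ± 0.09 for Rps27 and -0.31 ± 0.10 for Rpl35, with adjusted p of 0.192, 0.256 and 0.0724), and Rpl35 alone was -0.21 ± 0.09 (adjusted p = 0.181).

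**Figure D4:**
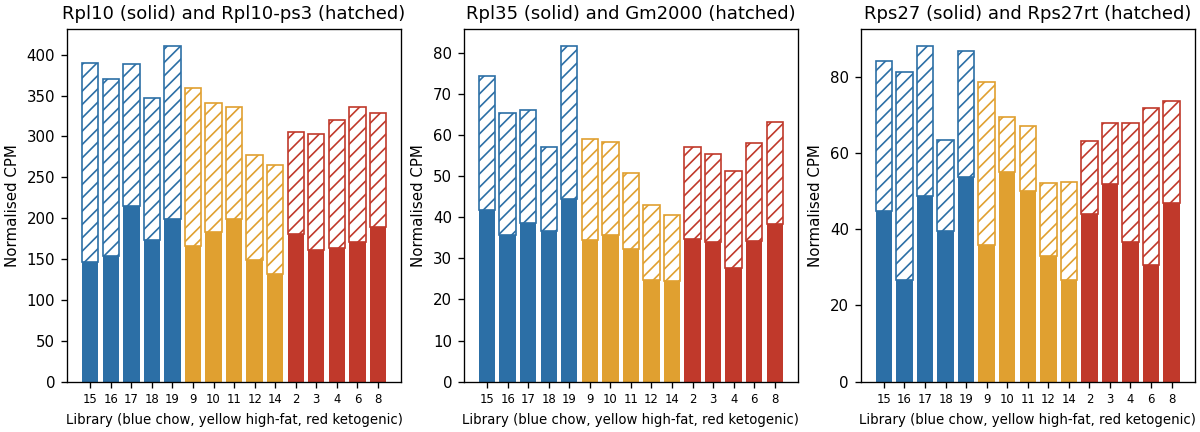
Normalised CPM of 3 members (solid bars) and of their near-identical copies (hatched, stacked on top) in the 5 chow (blue), 5 high-fat (yellow) and 5 ketogenic (red) libraries. In CD 16 Rps27 holds 26.6 CPM of a stack of 81.3 CPM, against 44.7 of 84.0 CPM in CD 15.

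Ribosomal genes that the symbol rule leaves out moved in part with the members: 3 of 7 fell on the ketogenic and 4 on the high-fat diet, and none rose. Rpl36al, a paralog of Rpl36a, changed by -0.40 ± 0.08 and -0.27 ± 0.08, Rps3a1 by -0.26 ± 0.07 and -0.32 ± 0.07, and Rack1, a signalling scaffold on the small subunit, by -0.24 ± 0.09 and -0.35 ± 0.09, all passing both tests. Fau, a fusion of a ubiquitin-like protein with a ribosomal protein, fell on the high-fat diet (-0.28 ± 0.08) and had -0.15 ± 0.08 on the ketogenic diet, short of the threshold. Rpl22l1 and Rpl7l1 passed neither test. Translation factors and other mRNAs with a 5′ terminal oligopyrimidine tract gave 5 falls of 21 on the ketogenic and 8 on the high-fat diet, none rising, with medians of -0.06 and -0.17. These falls were 23.8% and 38.1% of that list, beside 14.6% and 7.32% of all genes. Examples are the elongation factor subunits Eef1g (-0.26 ± 0.06 and -0.27 ± 0.06) and Eef1b2 (-0.21 ± 0.07 and -0.31 ± 0.07) and the nucleolar protein Npm1 (-0.26 ± 0.06 and -0.23 ± 0.06), which fell on both diets. When HFD 12 and HFD 14 were left out, 1 of the 7 ribosomal genes (Rps3a1, -0.24 ± 0.07, adjusted p = 0.0456) and 0 of the 21 others fell on the high-fat diet, with medians of -0.18 and -0.10.

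Of 50 genes of ribosome biogenesis, 13 fell and 1 rose on the ketogenic diet, and 2 fell and 1 rose on the high-fat diet, with medians of -0.13 and -0.03. Falls were 26% and 4% of that list, beside 14.6% and 7.32% of all genes. Mybbp1a, a nucleolar regulator of RNA polymerase I, fell on the ketogenic diet (-0.41 ± 0.08), as did Noc2l (-0.32 ± 0.07), while Rcl1, which acts in processing of small-subunit RNA, rose (0.38 ± 0.07). Of 27 genes of the mTORC1 pathway, 4 fell and 3 rose on the ketogenic diet and 0 fell and 1 rose on the high-fat diet. The ketogenic falls were 14.8% of this list, close to the 14.6% of all genes that fell, while 16.2% of all genes rose. On the high-fat diet 7.32% of all genes fell and 8.3% rose. Larp1, whose protein binds the oligopyrimidine tract, fell on the ketogenic diet (-0.28 ± 0.07) and had -0.09 ± 0.07 on the high-fat diet (adjusted p = 0.402). Mtor, the kinase itself, and Eif4ebp2, a translational repressor it phosphorylates, rose on the ketogenic diet (0.38 ± 0.08 and 0.26 ± 0.07), and Akt1s1, an inhibitory subunit of mTORC1, fell (-0.24 ± 0.06). With HFD 12 and HFD 14 left out, 1 biogenesis gene fell and none rose on the high-fat diet, and 0 genes of the mTORC1 list fell and 1 rose. Of all genes, 3.57% then fell.

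With all libraries, smaller shares of the genes of other large complexes fell than of the cytosolic ribosome. Of 78 mitochondrial ribosomal protein genes, 10 fell on the ketogenic and 12 on the high-fat diet (12.8% and 15.4%, beside 70.1% and 77.9% of the members), with medians of -0.07 and -0.12. Of all genes tested, 14.6% fell on the ketogenic and 7.32% on the high-fat diet. Of 73 tested nuclear genes of the respiratory chain, 5 fell and 6 rose on the ketogenic diet, and 3 fell on the high-fat diet. Of 39 proteasome genes, 5 fell (12.8%) and 3 rose on the ketogenic diet (median -0.04). On the high-fat diet 20 of them fell (51.3%) and none rose (median -0.20). On leaving out HFD 12 and HFD 14, 2 mitochondrial ribosomal (2.56%) and 2 respiratory chain genes (2.70%) fell on the high-fat diet. So did 10 proteasome genes (25.6%) and 20 members (26.0%), beside 3.57% of all genes. No test compared these lists with the members.

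**Figure D5:**
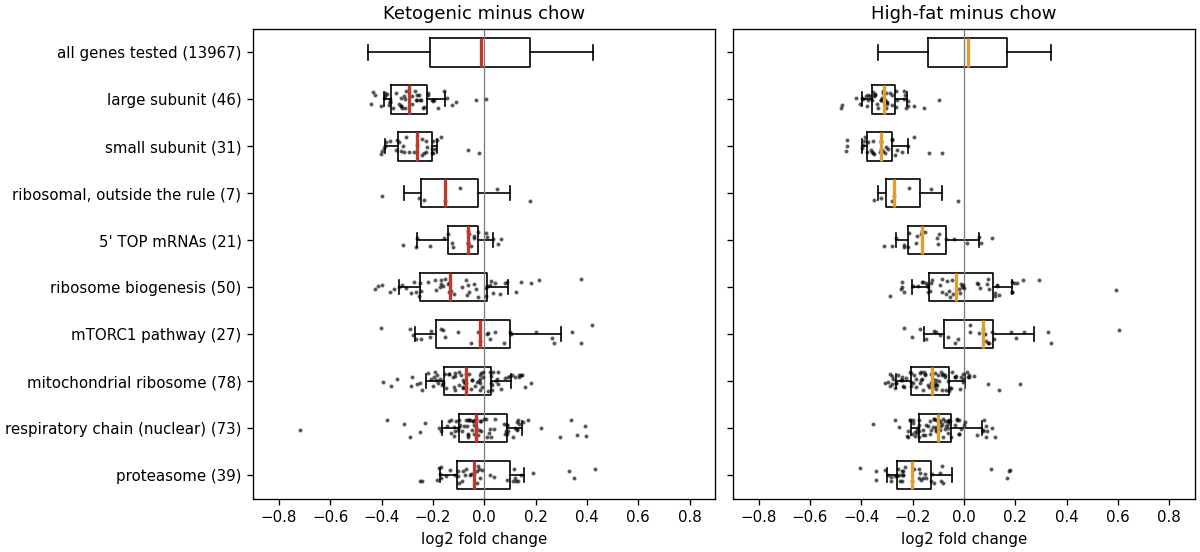
Log2 fold change against chow of all genes tested, of the members by subunit and of companion lists, on the ketogenic (left) and high-fat (right) diet; boxes give the quartiles and median, whiskers percentiles 10 and 90, dots single genes, and numbers in brackets the genes tested. Medians of both subunits lie between -0.26 and -0.32 on read counts, below those of every other list drawn, an order not tested and, for the ketogenic diet, not seen as a fall on log2 TPM.

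Several measures moved with the diets beside the members. Erythroid markers fell on the ketogenic diet in 5 of 5 tested, their summed level being 338 to 555 CPM there, 399 to 1167 CPM in high-fat and 735 to 1076 CPM in chow libraries. B-cell and plasma-cell markers fell in 6 of 7 tested, with sums of 3.33 to 4.39, 4.69 to 8.84 and 6.00 to 16.2 CPM. On the high-fat diet 0 of 5 and 1 of 7 of these fell. Of all genes, 14.6% fell on the ketogenic and 7.32% on the high-fat diet. Of the hepatocyte markers 1 of 8 fell and 2 rose on the ketogenic diet, and 2 fell and 2 rose on the high-fat diet. Of T-cell and NK-cell markers 1 of 5 fell on the ketogenic diet and 0 on the high-fat diet. No marker of macrophages, neutrophils, sinusoidal endothelium, stellate cells or cholangiocytes, and no proliferation marker, fell on either diet (edgeR, adjusted p under 0.05), except 1 of 8 macrophage markers on the high-fat diet without HFD 12 and HFD 14. On the ketogenic diet 2 of 4 proliferation markers, 1 of 6 endothelial and 1 of 6 stellate-cell markers rose. No marker was at 0 in all libraries. Of the 77 members, 72 are shorter than 1000 bases; of 1253 other genes that short, 21.5% fell on the ketogenic and 12.2% on the high-fat diet, with medians of -0.10 and -0.11. The part of these cell types and of gene length in the members' values was not tested.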

How the data were processed

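RNA sequencing of 15 mouse liver libraries, 5 libraries per diet, was analysed from per-library transcript tables. The submitters' processing notes name Trimmomatic 0.36, kallisto 0.44, edgeR 3.28 and build GRCm38.p6, with no settings. Per the file headers, the deposited tables hold an estimated count, an effective length and a TPM per transcript. Counts of the transcripts of a gene were added up through the GENCODE annotation, which matched 105734 of 106332 transcripts; the rest held 0.184 to 0.223% of reads and were left out. Sums were rounded to whole numbers, filtered with filterByExpr (minimum count 10, total 15) and fitted in edgeR 4.0.16 (R 4.3.3) over all 15 libraries, with TMM factors, robust quasi-likelihood dispersion and 12 residual degrees of freedom. P-values were adjusted by Benjamini-Hochberg over all 13967 genes tested, with a threshold of 0.05. The script was tested on simulated data. Replicate pairs differed beyond sampling noise (chi-square per degree of freedom 18.3 to 110). Limma 3.58.1 on log2(TPM + 1) and DESeq2 1.42.0 were alternatives, with other scalings, filters, offsets for length or GC content, added copies and libraries left out.

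The members and lists were chosen with earlier results of these data known. Genes named are, per comparison and subunit, the 4 with the smallest adjusted p among those passing and the 2 highest and 2 lowest changes, members called against the majority, a panel by role, and up to 4 of each companion list by adjusted p on the ketogenic diet. Outside this rule, Rpl13a, Rpl35, Rpl41, Rpl7 and members in the level order or with a copy were named after their values were seen. Some genes that the rule names are not reported here. Copies were genes with a transcript of which at least 50% of the 31-base words occur in a member. Estimated counts limit precision where copies share reads, and effective lengths entered only TPM and the length offset.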

Additional observations from a re-analysis of the deposited data

Results flagged for a closer look

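In 99 groups of 5 libraries examined for the named members reported here and the subunit shares, 3 held a library far from the other 4, its gap to the nearest exceeding 0.71 of the group's range. Chance gives about 1 in 20 such groups. Rpl12 measured 100.7 CPM in KD 8, above the 85.2 to 88.6 CPM of the other ketogenic libraries. Rpl3 measured 202 CPM in CD 15, above 170 to 177 CPM, and Rpl36 measured 27.8 CPM in CD 18, below 36.7 to 39.9 CPM. KD 8 had the highest median deviation from chow among the ketogenic libraries (-0.20). CD 15 had the highest among the chow libraries (0.11) and CD 18 the lowest (-0.16), so each of the 3 values lay on the side to which its library leaned over the whole set.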

How the results depend on the processing

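No paired analysis was possible because no library number recurs between diets. Against chow, members fell and none rose under each other scaling, filter, tool, offset and added-copy alternative run with edgeR or DESeq2. The same held when only the 2 diets compared were fitted. Over these alternatives 40 to 65 members fell on the ketogenic and 42 to 68 on the high-fat diet. Without HFD 12 and 14 (added after seeing the data) 67 fell on the ketogenic and 20 on the high-fat diet (11 large, 9 small). On log2 TPM no member fell on the ketogenic diet, 2 large-subunit members and 1 small-subunit member rose, and the median was 0.0472. With the length offset 23 large-subunit members fell on the high-fat diet (median -0.17). Leaving out single libraries gave 13 to 25 small-subunit falls on the ketogenic diet.

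Between the ketogenic and high-fat diets, 5 large-subunit and 7 small-subunit members rose under total count scaling, and 44 and 30 on log2 TPM (median 0.40). On centred log2 TPM 5 and 5 rose. With the length offset 2 and 1 rose and 2 large-subunit members fell. Of all 13967 genes, 2305, 4974, 2345 and 2075 rose under these settings in that order. Fitting only these 2 diets gave 0 large-subunit rises. Without HFD 12 and 14, 0 rose, and 5 large-subunit and 2 small-subunit members fell, beside 8.59% of all genes. Leaving out single libraries gave 0 to 4 large-subunit rises, 0 to 1 large-subunit falls and 0 to 3 small-subunit rises.

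The large-to-small ratio on the ketogenic diet, high-fat diet and chow was 1.44, 1.47 and 1.46 as TPM, 1.58, 1.59 and 1.58 with pseudogene reads added and 1.57, 1.58 and 1.57 with near-copy reads added. Ketogenic shares over chow, 0.870 (large) and 0.869 (small) in reads, were 1.02 and 1.04 as TPM and 0.790 and 0.789 outside Mup, Alb and mitochondrial genes. Ketogenic over high-fat shares, 1.07 and 1.08, were 1.30 and 1.32 as TPM and 0.978 and 0.981 outside those genes.

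On log2 TPM 52 of 77 members changed sign against chow on the ketogenic diet, 30 of them among the 54 that had fallen, and 21 changed sign between the ketogenic and high-fat diets and 0 against chow on the high-fat diet. Of named members with a call on either scale, on the ketogenic diet Rpl10 was 0.32, Rpl5 0.16, Rplp0 0.0754, Rps14 0.28, Rps2 0.0893, Rps21 0.0269, Rps24 0.0479 and Rps27a 0.0351. Against the high-fat diet, Rpl27 was 0.38, Rpl28 0.29, Rpl37 0.23, Rpl6 0.26, Rplp0 0.31, Rps2 0.25, Rps21 0.27, Rps23 0.29 and Rps6 0.31. The low-count filter left out Rpl3l, Rpl10l and Rpl39l, with at most 25 reads in all. The cause of these differences between settings was not tested.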
